A study of Mus musculus with 6 samples.

Results

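The genes followed here encode proteins that act when myoblasts fuse into multinucleated muscle fibres, and they were chosen by name. The list holds 10 genes, all of which were measured among 18182 genes on the arrays. They are the fusogens Mymk (myomaker) and Mymx (myomixer), the muscle membrane protein gene Tmem182, and the junctional adhesion molecule genes Jam2 and Jam3. The adhesion receptor genes Adgrb1 and Adgrb3, the exchange factor gene Dock1 and the tetraspanin genes Cd9 and Cd81 complete it. They were covered by 16 probe sets, and where a gene had several, the brightest on average over the 6 arrays stands for it.

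RNA came from limb cells with nuclear GFP, sorted by flow cytometry from embryos of the genotype Tg:Pax7-nGFP on the genetic background C57BL/6:DBA2. Pax7 is the transcription factor of muscle stem and progenitor cells. One group was collected at E12.5 and the other at E17.5, with 3 single-colour Affymetrix arrays each, called biological replicates A, B and C. All samples carry the same transgene, and no wild-type group is part of the design. The sample titles name no treatment, and the labels do not say how many embryos went into a sample. The comparison, E17.5 against E12.5, asks how the progenitor population differs between embryonic and fetal muscle formation.

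Skeletal muscle fibres form when differentiating myoblasts recognise each other, align their membranes and merge. Cell adhesion molecules bring the membranes together and signalling to the actin cytoskeleton pushes them against each other. Mymk acts in mixing the outer membrane leaflets and Mymx in opening the fusion pore, and both genes are switched on by myogenic basic helix-loop-helix factors during differentiation.

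Values are log2 signals after GCRMA, a method that corrects background from probe sequence. Differences are the E17.5 mean minus the E12.5 mean on that log2 scale, so 1 unit is a 2-fold change. They carry the standard error (SE) of limma, with Benjamini-Hochberg adjusted p-values over all 18182 genes. A gene is called when its adjusted p is under 0.05. Signals under 4 lie in a dense low range that holds little specific signal, and 42.8% of all genes had a mean there. Array medians lay between 3.38 and 3.47, and the number of arrays limits the precision. E17.5 replicates A and B were unusually alike: across the 8758 genes whose mean reached 6, their difference had an SD of 0.152, and the 5 other pairs of one age had SDs of 0.412 to 0.551. They may not be independent samples, so a further fit, called the averaged fit, used the mean of A and B as a single sample.

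The sorted cells carried the RNA of the labelled cell type at both ages. Pax7 itself stood at 11.46 ± 0.28 (SD, n = 3) at E12.5 and 12.37 ± 0.15 at E17.5, and it was called higher (0.91, SE 0.16, adjusted p = 0.0105). Some defining markers of endothelium, blood and Schwann cells were in the low range, with Pecam1 between 2.21 and 2.44, Ptprc between 2.40 and 2.74, and Itga2b between 2.33 and 2.40 on the 6 arrays. Cdh5 reached 4.01 and Sox10 3.84, both in E12.5 replicate B. Other members of these lists were well above it, here named after their values were seen. The endothelial receptor gene Tek rose from 5.29 to 10.18 (adjusted p = 0.000154), the macrophage gene Cd68 rose from 3.69 to 6.68 (adjusted p = 0.00281), and Erbb3, a neuregulin receptor gene, fell from 12.68 to 9.87 (adjusted p = 0.000248). Over whole lists, 3 of 12 endothelial, 5 of 11 blood and platelet, and 7 of 11 neural and Schwann markers were under 4 on every array, but 0 of 14 fibroblast and connective tissue markers were. The summed linear signal of the endothelial list was 312 to 628 at E12.5 and 1400 to 1600 at E17.5, but 284 to 568 and 309 to 319 without Tek, and 11 of its 12 genes were not called. The neural list summed to 5140 to 7940 and 871 to 1110, and to 100.0 to 132 and 69.6 to 72.9 without Erbb3. The blood list summed to 106 to 375 and 258 to 333. Of the 11 neural genes 0 were called higher and 3 lower, and of the 11 blood genes 2 were called higher and 1 lower. Each of these shares was 27.3%, and that of the endothelial list 8.33%, against 16.9% of all genes.

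Fibroblast and connective tissue markers differed between the ages in both directions. Of 14 genes, 3 were called higher and 3 lower (42.9%, against 16.9% of all genes). The averaged fit called 1 higher and 1 lower, with 10.2% of all genes called. The summed signal, 10200 to 25900 at E12.5 and 21400 to 27000 at E17.5, overlapped. Without Col3a1 it was 4820 to 12300 at E12.5 and 7840 to 9510 at E17.5, so the fetal range lay within the embryonic one. Of the defining markers Pdgfra, a growth factor receptor gene, fell from 10.01 to 6.33 (adjusted p = 0.0316) and the collagen gene Col1a1 rose from 5.88 to 8.64 (adjusted p = 0.0236). The call of Pdgfra was lost without E12.5 replicate A or B or E17.5 replicate B or C, with adjusted p of 0.0535 to 0.0796. That of Col1a1 was lost without E12.5 replicate C or E17.5 replicate A or B, with adjusted p of 0.0589 to 0.0801, and in the averaged fit. The other called genes, named after their values were seen, were Dpt (9.04, or 7.14 with values under 4 raised to 4, called in all 17 alternative fits), Tnmd (4.38, called in 13), Twist2 (-3.21, called in 11) and Prrx1 (-1.95, called in 9). The part of these markers in the differences of the fusion genes was not tested. In bulk samples, fewer cells of a type and less RNA per cell cannot be told apart.

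Of the 10 fusion genes, 4 were called higher at E17.5 (Mymx, Mymk, Cd9 and Cd81), 1 was called lower (Adgrb3) and 5 were not called. Over all genes 8.21% were called higher, 8.73% lower and 16.9% in either direction. The averaged fit also called these 4 genes higher and Adgrb3 lower, with 5.62% of all genes called higher, 4.54% lower and 10.2% in either direction. The median difference of the 10 genes was 0.72, against 0.003 over all genes. In 7 of the 10 genes all arrays of one age lay above all arrays of the other, as they did for 31.4% of all genes.

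**Figure D1:**
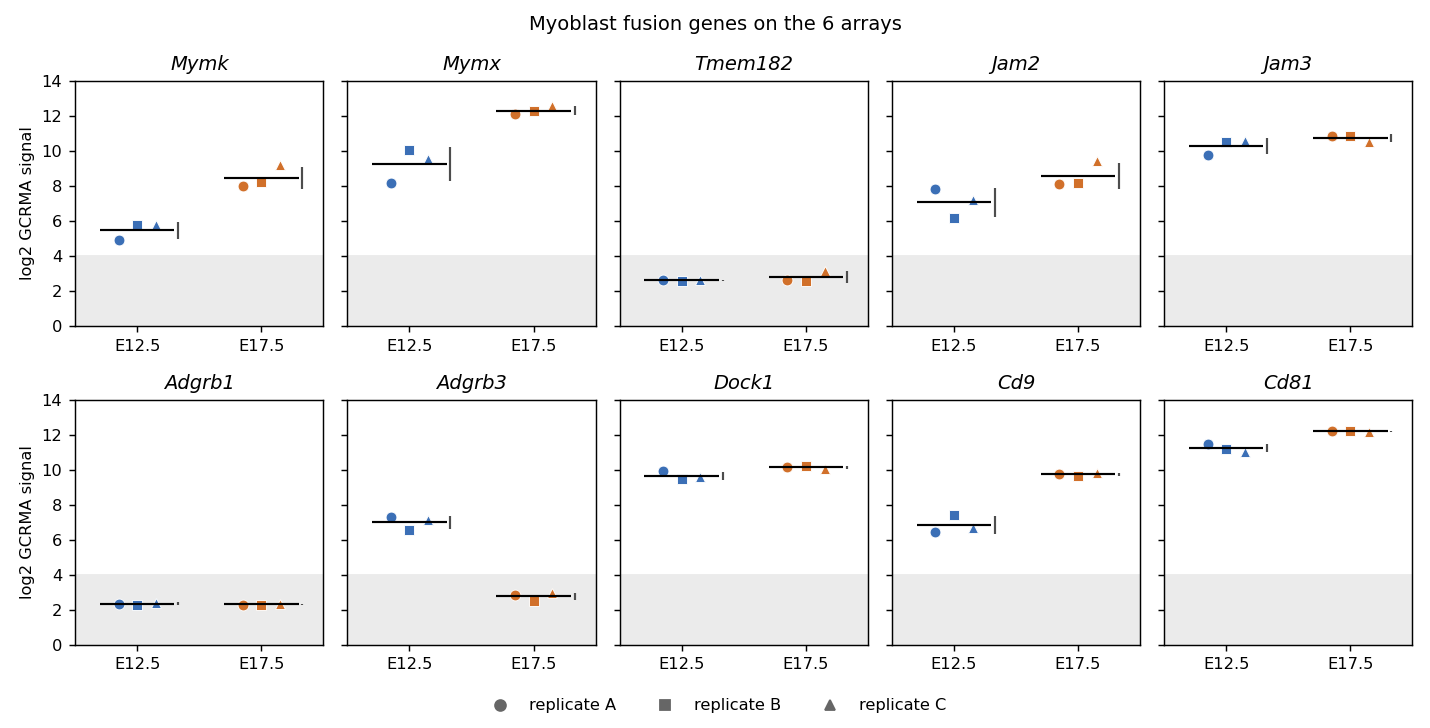
Log2 GCRMA signal (vertical axis) of the 10 fusion genes on each array at E12.5 (blue) and E17.5 (orange), with the mean as a horizontal line and the SD (n = 3) as a vertical bar beside the points. The grey band marks signals under 4. Mymk, Mymx, Cd9 and Cd81 are higher at E17.5, Adgrb3 drops from a mean of 6.99 into the grey band, and Tmem182 and Adgrb1 lie in the band at both ages.

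The fusogen Mymx, a short single-pass membrane protein made by differentiating myoblasts, rose 8.32-fold. Its signals were 8.17, 10.04 and 9.56 in E12.5 replicates A, B and C, and 12.09, 12.28 and 12.57 in E17.5 replicates A, B and C. All fetal arrays lay above all embryonic arrays, and E12.5 replicate A was the lowest of the 6. The means were 9.26 ± 0.97 and 12.31 ± 0.24, with a difference of 3.06 (SE 0.45, adjusted p = 0.00531, limma).

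Mymk, the multi-pass membrane fusogen needed on both partners of a myoblast fusion, rose 7.93-fold. It was at 4.93, 5.76 and 5.76 in E12.5 replicates A, B and C, and at 7.98, 8.24 and 9.19 in E17.5 replicates A, B and C. The ages did not overlap, E12.5 replicate A was again the lowest array, and E17.5 replicate C was the highest. From a mean of 5.48 ± 0.48, not far above the low range, it went to 8.47 ± 0.64 (difference 2.99, SE 0.39, adjusted p = 0.00328). Without E17.5 replicate C the difference was 2.63 and remained called (adjusted p = 0.00633).

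The fusogens were also compared with each other. The log2 signal of Mymx minus that of Mymk was 3.24, 4.28 and 3.80 at E12.5 and 4.11, 4.04 and 3.38 at E17.5. This within-array ratio moved by 0.07 between the ages, against an SD of 0.52 at E12.5 and 0.40 at E17.5 (two-sided exact permutation p = 0.9). With 3 against 3 arrays the smallest p that test can give is 0.1, and it was run on 4 pairs of related genes. The sign of so small a shift turned when E12.5 replicate A (-0.20), E17.5 replicate A (-0.06) or E17.5 replicate B (-0.03) was left out.

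Within an age, some differentiation genes deviated on the same arrays as the fusogens and others did not. E12.5 replicate A lay below the mean of B and C by 1.63 for Mymx and 0.83 for Mymk. For Myog, the transcription factor gene of terminal differentiation, the same gap was 1.29, for the skeletal actin gene Acta1 1.47 and for the intermediate filament gene Des 1.18. Pax3, a progenitor gene, was 1.10 higher there, while Myod1 differed by -0.22 and the troponin gene Tnnt1 by -0.12. For Acta1 and Pax3, however, E12.5 replicate B stood off further than A. Replicate B differed from the mean of A and C by 2.1 for Acta1 and -1.7 for Pax3. The same measure was 1.17 for Mymx, 0.42 for Mymk, 0.81 for Myog and 0.25 for Des. At E17.5, replicate C exceeded the mean of A and B by 1.08 for Mymk, 0.39 for Mymx and 1.05 for Acta1, but differed by -0.01 for Myog and for Des, -0.60 for the myogenic factor gene Myf6 and -0.61 for Tnnt1. Acta1, Des, Myf6 and Tnnt1 were chosen after their values were seen. The mean log2 signal of the fibroblast list was 7.0 in E17.5 replicate C against 8.14 and 8.11 in A and B, and 8.66 in E12.5 replicate B against 7.06 and 6.75 in A and C. The part of these shifts in the results was not tested.

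Among 14 myogenic factors and early differentiation genes, 5 were called higher and 1 lower (42.9%, against 16.9% of all genes). Their median difference was 0.78. Myog rose from 11.20 ± 0.75 to 13.06 ± 0.07 (1.86, SE 0.35, adjusted p = 0.0128). Pax3 fell by 2.56 (SE 0.49, adjusted p = 0.0142), a call that was lost without E12.5 replicate C (adjusted p = 0.0527). The determination genes Myf5 (0.90, SE 0.29, adjusted p = 0.084) and Myod1 (0.15, SE 0.13, adjusted p = 0.573) and the cofactor gene Mef2c (-0.65, SE 0.35, adjusted p = 0.304) did not pass the test.

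Tmem182, a muscle membrane protein reported to restrain fusion through integrin beta 1, had no signal above the low range. Its probe set read 2.62, 2.59 and 2.62 at E12.5 and 2.63, 2.60 and 3.16 at E17.5. Only E17.5 replicate C stood off the others, and the ages overlapped. The difference was 0.19 (SE 0.14, adjusted p = 0.524), and a change in such a signal cannot be read from this probe set.

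Of the tetraspanins, 4-pass membrane proteins that organise adhesion and fusion partners in the membrane, Cd9 rose 7.46-fold. Its signals were 6.43, 7.38 and 6.66 in E12.5 replicates A, B and C, and 9.73, 9.62 and 9.82 in E17.5 replicates A, B and C. Every fetal array lay above every embryonic one, with less spread at E17.5, and E12.5 replicate B was the highest of its age. The means were 6.82 ± 0.50 and 9.72 ± 0.10 (difference 2.90, SE 0.26, adjusted p = 0.000627). Without E12.5 replicate B, the array with the highest fibroblast signal of its age, the difference was 3.18.

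Cd81, the partner tetraspanin of Cd9 in many membrane complexes, rose less. It gave 11.48, 11.16 and 11.01 at E12.5 and 12.20, 12.21 and 12.15 at E17.5. The fetal values were nearly equal and all above the embryonic ones. The means were 11.22 ± 0.24 and 12.19 ± 0.03, a 1.96-fold rise (0.97, SE 0.13, adjusted p = 0.00376). Set against each other within an array, Cd81 minus Cd9 was 4.39 ± 0.64 at E12.5 and 2.46 ± 0.13 at E17.5. That shift of -1.93, with no overlap between the ages, had the smallest p the two-sided exact permutation test allows (0.1, adjusted over the 4 pairs 0.2), so this test cannot place it under 0.05.

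Other tetraspanins did not share one direction. Of 22 measured tetraspanin and partner genes 4 were called higher, 2 lower and 16 were not called, with a median difference of 0.12. The called share was 27.3%, against 16.9% of all genes. Cd82, a tetraspanin of satellite cells, rose from 7.26 ± 0.12 to 11.68 ± 0.23 (4.42, SE 0.15, adjusted p = 3.68e-05; 2.21 as the mean of its probe sets). Ptgfrn, the immunoglobulin protein that binds both Cd9 and Cd81, rose by 2.47 (SE 0.19, adjusted p = 0.000375; 1.26 as the mean of its probe sets) and Tspan12 by 2.03 (SE 0.27, adjusted p = 0.00332). The remaining rise was that of Tspan17, from 2.43 to 5.68, named after its values were seen. Tspan13 fell by 3.05 (adjusted p = 0.0211) and Tspan9 fell by 1.0 (adjusted p = 0.0285). Raising values under 4 to 4 ended both calls (adjusted p = 0.0639 and 0.0724). No value of either gene was under 4, so this floor left their differences unchanged and acted only through the other genes in the fit. The call of Tspan13 was also lost without E12.5 replicate A or B (adjusted p = 0.0518 and 0.0706). That of Tspan9 was lost without E12.5 replicate A or C or E17.5 replicate A or B, with adjusted p of 0.0693 to 0.101, and in the averaged fit (adjusted p = 0.095).

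The gene coding for the receptor Adgrb3 (BAI3), an adhesion G protein-coupled receptor that binds Elmo proteins in myoblasts, fell by 4.23 log2 units. It was at 7.27, 6.56 and 7.13 in E12.5 replicates A, B and C, and at 2.84, 2.5 and 2.92 in E17.5 replicates A, B and C. All fetal values lay in the low range, and all embryonic ones far above it. The means were 6.99 ± 0.38 and 2.75 ± 0.22 (difference -4.23, SE 0.27, adjusted p = 0.000195). Because the fetal level is a background reading, the size depends on the background model, and a floor of 4 on all values gave -2.99 (adjusted p = 0.00189).

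Its relative Adgrb1 (BAI1), a receptor for phosphatidylserine on dying cells that promotes fusion through Elmo and Dock1, was in the low range throughout. The values were 2.34, 2.25 and 2.40 at E12.5 and 2.27, 2.27 and 2.33 at E17.5, with overlapping ages and a difference of -0.04 (SE 0.04, adjusted p = 0.67). Because Adgrb1 lay in the low range on every array, Adgrb3 minus Adgrb1 (a shift of -4.19, or -2.99 with values under 4 raised to 4) restates the difference of Adgrb3 and does not compare the receptors. Of 11 measured relatives, ligands and partners of these receptors 0 were called higher and 1 was called lower in the limma fit. That is 9.09% of the list, against 16.9% of all genes. At an unadjusted p under 0.05 the counts were 1 and 2. The fits without the intensity trend, with array weights, with other probe sets and with only genes of a mean of at least 4 called 1 higher. The lower gene was Adgrl1, a latrophilin receptor gene, which fell by 1.33 (SE 0.26, adjusted p = 0.0148). The averaged fit did not call it, nor did the fits without E17.5 replicate A or B (adjusted p = 0.0553 and 0.0516).

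Dock1 encodes the exchange factor that activates the small GTPase Rac at fusion sites together with Elmo. It was at 9.89, 9.47 and 9.59 at E12.5 and at 10.14, 10.20 and 10.02 at E17.5. The ages did not overlap, but E12.5 replicate A came close to E17.5 replicate C. The difference of 0.47 (SE 0.14, 95% interval 0.14 to 0.80) did not pass the test over all genes (adjusted p = 0.0643). Leaving out E12.5 replicate A gave a call (0.59, adjusted p = 0.0173), and so did dropping genes with a mean under 4 before the fit (adjusted p = 0.0473). A second Dock1 probe set stayed between 2.44 and 2.5 on the 6 arrays, and the mean of both differed by 0.23.

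The junctional adhesion molecules, immunoglobulin-type receptors on the cell surface that pair with each other between cells, did not pass the test. Jam2 was at 7.84, 6.19 and 7.22 at E12.5 and at 8.11, 8.18 and 9.41 at E17.5. The ages did not overlap, though E12.5 replicate A nearly reached the fetal values and E17.5 replicate C stood above the other arrays. The difference was 1.48 (SE 0.51, 95% interval 0.26 to 2.71, adjusted p = 0.107), and without E17.5 replicate C it was 1.06. A second Jam2 probe set went from 5.87 ± 0.47 to 6.68 ± 0.33 (0.80, SE 0.31, adjusted p = 0.209 over all probe sets). The 3 remaining ones had means between 2.32 and 3.74 and differences of 0.01 to 0.21, and the mean of all 5 differed by 0.51.

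Jam3 did not pass the test either. It was at 9.78, 10.51 and 10.60 in E12.5 replicates A, B and C and at 10.88, 10.88 and 10.50 in E17.5 replicates A, B and C. The ages overlapped, with E12.5 replicate A lowest. The difference was 0.46 (SE 0.24, 95% interval -0.11 to 1.03, adjusted p = 0.288). It was 0.20 without E12.5 replicate A and 0.22 as the mean of its probe sets, the second of which stayed between 3.07 and 3.35 (difference -0.01). Jam3 minus Jam2 moved by -1.03, from 3.21 ± 1.2 to 2.19 ± 0.95 (two-sided exact permutation p = 0.4, adjusted 0.533). That shift was -0.47 without E12.5 replicate B, -0.48 without E17.5 replicate C, -1.66 without E12.5 replicate A and -0.28 with the mean of all probe sets. Of 9 measured partners of these molecules 0 were called higher and 2 lower in the limma fit (22.2%, against 16.9% of all genes). At an unadjusted p under 0.05 the counts were 0 and 3. The alternative fits also called 0 higher. Cxadr, a related adhesion molecule and virus receptor gene, fell by 4.15 (SE 0.43, adjusted p = 0.00115; -3.14 with values under 4 raised to 4, and -0.96 as the mean of all its probe sets). The other was Pard6b, a polarity protein gene that fell by 1.37 between means of 4.61 and 3.24, named after its values were seen. With values under 4 raised to 4 it differed by -0.61 (adjusted p = 0.315), and its call was also lost in the averaged fit and without E17.5 replicate A or B.

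**Figure D2:**
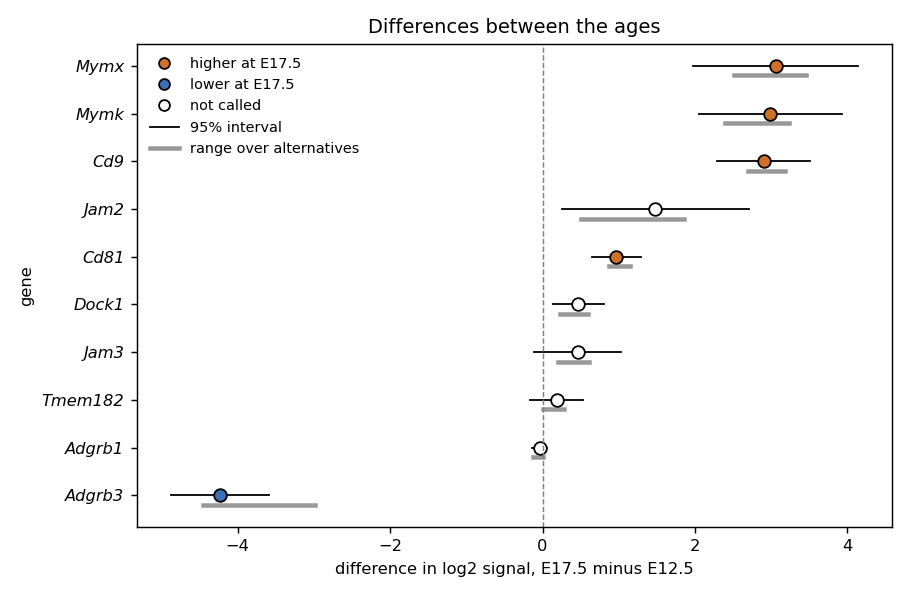
Difference in log2 signal, E17.5 minus E12.5 (horizontal axis), for each fusion gene, with the 95% interval of the limma fit as a black line. Grey bars span the values over the processing alternatives. Mymx, Mymk and Cd9 cluster near 3 and Cd81 lies at 0.97. Adgrb3 at -4.23 is the called gene on the other side, with a grey bar from -4.45 to -2.99, and Adgrb1, not called, lies at -0.04.

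The start regions of the called genes that had one on record are shown because factors such as Myod1 and Myog bind E-boxes, the motif CANNTG. RefSeq promoter windows of 300 bases, 250 before the start and 50 from it (GRCm38.p6), were matched for 5 of the 10 genes, and 3 of those were called. The called fusogen genes Mymk and Mymx had no matched window, so nothing is shown for them. Capitals mark each E-box, a motif that reads the same on both strands.
Cd9 (chr6:125494711-125495010, minus strand): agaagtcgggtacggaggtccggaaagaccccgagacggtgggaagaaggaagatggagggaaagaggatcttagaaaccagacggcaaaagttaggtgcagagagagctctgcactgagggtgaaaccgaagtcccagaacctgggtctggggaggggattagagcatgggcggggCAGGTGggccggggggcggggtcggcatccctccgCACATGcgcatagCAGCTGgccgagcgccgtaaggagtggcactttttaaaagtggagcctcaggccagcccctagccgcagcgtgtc
Cd81 (chr7:143052500-143052799, plus strand): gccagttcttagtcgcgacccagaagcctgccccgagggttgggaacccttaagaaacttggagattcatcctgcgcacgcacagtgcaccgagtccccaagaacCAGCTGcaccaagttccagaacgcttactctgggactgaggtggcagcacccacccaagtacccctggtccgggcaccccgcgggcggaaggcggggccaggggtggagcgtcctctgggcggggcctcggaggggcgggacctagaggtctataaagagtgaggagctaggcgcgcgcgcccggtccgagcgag
Adgrb3 (chr1:25829658-25829957, minus strand): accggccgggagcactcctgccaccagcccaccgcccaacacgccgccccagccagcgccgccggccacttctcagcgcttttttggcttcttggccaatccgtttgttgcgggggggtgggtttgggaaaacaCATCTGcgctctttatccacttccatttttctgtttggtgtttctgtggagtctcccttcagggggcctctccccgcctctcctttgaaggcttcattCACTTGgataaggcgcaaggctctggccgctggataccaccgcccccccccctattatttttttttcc

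The Cd9 window held 3 E-boxes, the Cd81 window 1 and the Adgrb3 window 2, while those of the uncalled genes Dock1 and Tmem182 held 1 and 2. At least 1 such match occurred in 72.3% of 32851 windows of this length, so its presence does not set these genes apart. The form CAGCTG, present in 16.3% of windows and counted among the E-boxes too, was found once each for Cd9, Cd81 and Tmem182, and not for Adgrb3 or Dock1. The GC-rich motif GGGCGG, searched on both strands and present in 35.7% of windows, was found 2 times for Cd9 and 3 times each for Cd81, Adgrb3 and Dock1. Matches describe the letters of these windows only.

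Fusion needs more than these genes, and 6 lists of other adhesion, signalling and membrane genes were examined. They held 112 measured genes, of which 22 were called higher, 11 lower and 79 were not called (29.5% called, median difference 0.09). Over all genes 16.9% were called, 8.21% higher and 8.73% lower. In the averaged fit 17 were higher and 6 lower, with 10.2% of all genes called, and leaving out E17.5 replicate A or B also gave 6 lower.

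Surface receptors moved both ways. Of 23 measured adhesion and surface receptor genes 3 were called higher and 3 lower, with a median difference of 0.32 (5 higher without E17.5 replicate C). The called share was 26.1%, against 16.9% of all genes, of which 8.21% were higher and 8.73% lower. Itga6, a laminin receptor subunit, rose by 3.59 (SE 0.33, adjusted p = 0.000702) and Vcam1, an adhesion molecule of myoblasts, by 3.39 (SE 0.42, adjusted p = 0.0025). Itga4, whose product pairs with integrin beta 1 to bind Vcam1, fell by 2.79 (SE 0.28, adjusted p = 0.00107; -1.74 as the mean of its probe sets). Ncam1 rose by 1.17, but was not called at another probe set (0.71, adjusted p = 0.655). Boc, a co-receptor that promotes myogenic differentiation, fell by 1.52 (adjusted p = 0.00718), and the N-cadherin gene Cdh2 fell by 1.11 (adjusted p = 0.00237).

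Membrane remodelling genes were mostly higher. Of 20 measured genes 12 were called higher, 2 lower and 6 were not called, with a median difference of 1.01. That is 70.0% of the list, against 16.9% of all genes (8.21% higher and 8.73% lower). The averaged fit called 9 higher and 1 lower, with 10.2% of all genes called. Anxa1, a calcium-dependent phospholipid-binding annexin, rose from 5.68 ± 1.0 to 9.01 ± 0.46 (3.33, SE 0.51, adjusted p = 0.00615; 1.68 as the mean of all its probe sets). Cav3, the muscle caveolin gene, rose by 2.90 (SE 0.20, adjusted p = 0.000244; 2.05 with values under 4 raised to 4), and the phospholipase D gene Pld1 by 2.56 (SE 0.28, adjusted p = 0.0015; 1.61 as the mean of its probe sets). Plekho1 fell by 1.51 (adjusted p = 0.00652) and Gulp1, an adaptor of phagocytic receptors, fell by 1.38 (adjusted p = 0.0209). Gulp1 was not called by the averaged fit (adjusted p = 0.0646) or without E12.5 replicate B or any 1 of the E17.5 replicates. Each of these fits left 1 fall in the list. Nor was Gulp1 called with values under 4 raised to 4 (adjusted p = 0.0572), where 2 genes of the list were lower. No Gulp1 value was under 4, so that floor acted on it only through the other genes in the fit.

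In the list of actin signalling, the process downstream of Dock1, 14.8% of genes were called, against 16.9% of all genes. Of 27 measured genes 3 were called higher, 1 lower and 23 were not called, with a median difference of 0.10. Wipf1, a partner of the actin regulator N-WASP, rose by 1.22 (SE 0.23, adjusted p = 0.0131), while the GTPase genes Arf6 (0.75, SE 0.17, adjusted p = 0.0288) and Rhoa (0.50, SE 0.09, adjusted p = 0.0131) rose less. Without E17.5 replicate A 1 gene of the list was called higher (Wipf1 and Arf6 were lost), and without E17.5 replicate B again 1 (Arf6 and Rhoa were lost). The averaged fit called 1 higher and 0 lower. Arf6 was also lost with values under 4 raised to 4 (adjusted p = 0.0695), without E12.5 replicate B or C or E17.5 replicate C, and at another probe set (0.10, adjusted p = 0.895), as was Rhoa (0.32, adjusted p = 0.365). No Arf6 value was under 4, so the floor acted on it only through the other genes in the fit. The fallen gene, named after its values were seen, was Dock5, a relative of Dock1, which went from 4.05 to 2.12 (adjusted p = 0.0169). Fetal Dock5 was in the low range, and with values under 4 raised to 4 the difference was -0.34 (adjusted p = 0.509). The fall was also lost in the averaged fit and without E12.5 replicate B, E17.5 replicate A or E17.5 replicate B, and 2 genes of the list were lower without E17.5 replicate C.

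**Figure D3:**
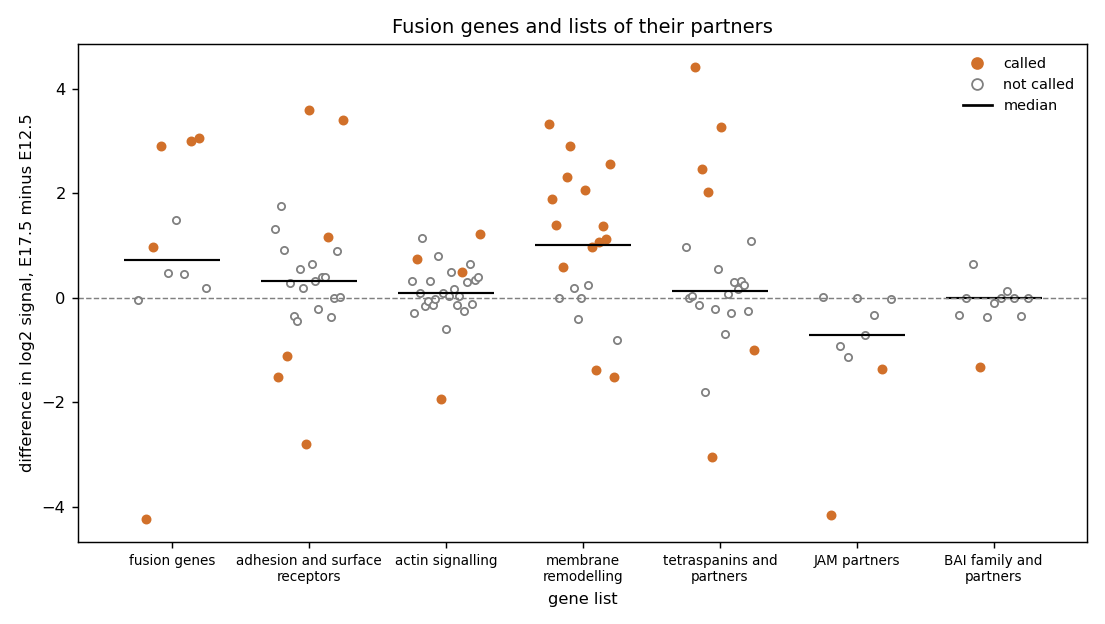
Difference in log2 signal, E17.5 minus E12.5 (vertical axis), for each gene of the fusion genes and of 6 lists of partners, with called genes filled, other genes open and list medians as black lines. The membrane remodelling list has 12 of 20 genes called higher and a median of 1.01, and the actin signalling list has a median of 0.10. Of all genes 8.21% were called higher.

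Genes with array patterns closest to those of the fusogens were found by the root mean square distance between values centred on each gene's mean, over 6 arrays and the same 8758 genes. For Mymk they were Rnf225 (distance 0.20), Stat3 (0.22) and Wscd1 (0.23), which differed between the ages by 2.97, 2.74 and 2.97. For Mymx they were Pdlim1 (0.28), Ablim3 (0.29) and Olfml2b (0.32), with differences of 3.12, 3.19 and 2.5. For Adgrb3 they were Emb (0.21), Pcdh17 (0.25) and Hmga2 (0.28), at -3.85, -4.16 and -4.12. With 6 arrays in 2 groups, such a likeness mostly describes the age difference and its size.

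**Figure D4:**
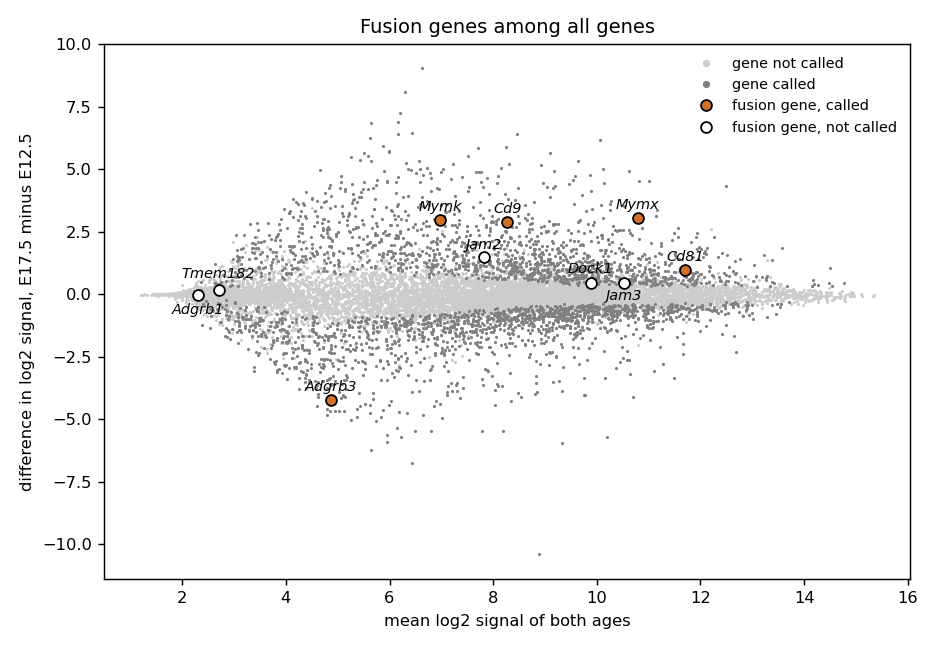
Mean log2 signal of both ages (horizontal axis) against the difference, E17.5 minus E12.5 (vertical axis), for all 18182 genes, with the fusion genes outlined. Among the fusion genes, Mymx (3.06) keeps a large difference at high signal, whereas Adgrb3 (-4.23) has a mean of only a few log2 units because its fetal signal is in the low range.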

How the data were processed

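RNA of Pax7-nGFP+ limb cells was hybridised to 6 single-colour Affymetrix arrays, 3 per age. Per the labels' protocols, total RNA was amplified from the 3' end in 2 cycles, so RNA integrity and the position of a probe can affect its signal. The authors deposited log2 signals for probe sets. According to the submitters' processing notes they come from GCRMA, whose version is not given in the sources used here. Of 44994 probe sets 34909 had 1 gene symbol and 931 several, and 9154 were not named here. Symbols were updated by entrez ID to RefSeq GRCm38.p6, used for names and promoter sequences.

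Differences were fitted with limma 3.58.1 in R 4.3.3 (lmFit, eBayes with an intensity trend) without a filter, on all 6 arrays, and the fit was tested on simulated data. Related genes were compared with exact permutation tests (scipy 1.17.1). Figures were drawn with matplotlib 3.10.9. The fusion genes, the other lists and the tests were chosen with earlier results of these data known. The lists came from textbook knowledge. Named genes were all fusion genes, up to 3 called rises and 3 called falls per list (ages not overlapping, a mean of 6 or more at one age), 6 myogenic factors, and defining markers of other cell types. Exceptions are named as such. The alternatives were other variance models, array weights, other probe set choices, a filter and a floor at 4, other normalizations, the replicate letter as a block, averaging E17.5 A and B, stricter thresholds, and leaving out each array. The p-values of limma set the age difference against an estimate of the spread within each age. The labels do not say whether the replicates came from separate litters, so that spread may not be one between independent samples.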

Additional observations from a re-analysis of the deposited data

How the results depend on the processing

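The calls of Mymk, Mymx, Cd9, Cd81 and Adgrb3 kept their direction and stayed under the threshold in all 17 alternative fits, with adjusted p up to 0.024 and differences of 2.40 to 3.23, 2.51 to 3.45, 2.70 to 3.18, 0.87 to 1.15 and -4.45 to -2.99. Of the 5 other fusion genes, the fit with array weights called Dock1 (0.56), Jam2 (0.94) and Adgrb1 (-0.12, giving 2 fusion genes lower). Dock1 was also called among genes with a mean of at least 4 (0.47), and lay between 0.38 and 0.59 without 1 array. The pair Mymx minus Mymk had a shift of -0.05 in the averaged fit and -0.20 to 0.32 without 1 array, against 0.07. Over all genes 1493 were called higher and 1587 lower. Array weights gave 3205 and 5219 (47 and 26 of the partner lists, against 22 and 11), a threshold of 0.01 gave 841 and 701 (5 lower in the partner lists), and at least 2-fold gave 924 lower. Averaging E17.5 A and B gave 825 lower genes (6 in the partner lists). Without 1 array the counts were 969 to 1553 higher and 770 to 1776 lower, and 6 to 13 lower in the partner lists. With the replicate block 1014 genes were lower. The labels state no pairing by letter. Deviations of equal letters correlated at -0.380, 0.255 and -0.070, and those of unlike letters at -0.342 to 0.366. With 3 arrays per age, these values cannot decide whether the letters pair samples. The block changed no call of a fusion gene. The markers and genes not called whose sign turned were Myod1 (-0.07), Cdh5 (0.18) and Ptprc (0.15) with array weights, and Ptprc (0.01) with other probe sets. Without 1 array Pecam1 ranged from -0.06 to 0.05, Cdh5 from -0.57 to 0.02 and Ptprc from -0.11 to 0.09. The cause of these changes was not tested. Signals under 4 carry little information on Tmem182, Adgrb1 and fetal Adgrb3.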

Other observations

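Direct partners of the fusion proteins that the naming rule left out were looked up after the other values were seen. Elmo2, an adaptor of Dock1, was at 7.06 at E12.5 and 6.47 at E17.5 (difference -0.59, SE 0.30, limma adjusted p = 0.274), and Elmo1 had means of 3.06 and 3.16, in the low range. Rac1, the GTPase that Dock1 activates, differed by 0.04 (SE 0.22, adjusted p = 0.954). Adgrb2, the third receptor of its family, had means of 3.29 and 2.97, and C1ql1, C1ql2 and C1ql3, of the ligand family of Adgrb3, had means of 2.12 to 3.31 at both ages. Cdh15, the M-cadherin gene of myoblasts, was at 9.57 and 10.49 (0.92, SE 0.30, adjusted p = 0.0889). Cd151, a tetraspanin that binds laminin-receptor integrins, was at 9.29 and 10.26 (0.97, SE 0.29, adjusted p = 0.0705), and Igsf8, a partner of Cd9 and Cd81, differed by -0.13 (SE 0.36, adjusted p = 0.914).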
